A study of Mus musculus with 15 samples.

Results

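Among the CpG-rich regions read by reduced representation bisulfite sequencing (RRBS) in whole mouse lung, 2858 autosomal regions of 1 kb sat at a middle methylation level and varied little between wild-type animals. A region entered when it held at least 5 CpG cytosines covered by at least 10 reads in all 15 libraries, when its level lay between 35 and 65% in each of 6 wild-type libraries, and when the standard deviation (SD) between those 6 was under 4 percentage points. The level of a region was the methylated reads of its cytosines over their methylated plus unmethylated reads. Of 77328 regions with enough cytosines and coverage, 5844 had the middle level and 2858 also had the small SD, which was 3.70% of all and 48.9% of those of middle level. The members were thus chosen by their levels in the 6 wild-type libraries, and those levels are given as a description. The 15 libraries came from 7 wild-type mice and 8 transgenic littermates heterozygous for Ctcf, 1 library per mouse. Urethane, a lung carcinogen, had been given once to all 15 mice at 14 days (1 mg per g body weight), and the lungs were taken from animals aged 46 to 55 weeks. The wild-type group was labelled as 3 males and 4 females, the heterozygous group as 4 males and 4 females. The strain, the Ctcf allele and whether the lungs carried tumours are not given in the sources used here.

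Imprinted genes are expressed from one parental copy, and most imprinted clusters are controlled by a germline differentially methylated region that one parent methylates in its gametes and that stays methylated on that copy in most tissues. Such a region reads as a middle level at every cytosine, with the methylated and the unmethylated copy in the same cell. Methylated imprints are protected after fertilisation by zinc finger proteins such as ZFP57, which binds the hexamer TGCCGC when its CpG is methylated, and CTCF, the zinc finger protein whose gene is disrupted here, binds the unmethylated maternal copy upstream of H19. A middle level in bulk tissue can equally come from a mixture of cells or of cytosines that are each fully methylated or unmethylated. Levels in whole lung alone cannot tell apart a change on a copy from a change in the cells the tissue holds.

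The regions that behave this way around known imprints are shown first by their sequence. Of 8 promoter windows of 300 bases that overlap members near imprinted genes, 4 are printed 5′ to 3′ from RefSeq (GRCm38.p6, the mm10 build of the call tables), each with its position and strand, with matches to TGCCGC on either strand in capitals. Every cytosine the tables list within the promoter windows of that table (244908 cytosines) stands in a CG there. They were selected as 1 window for each of 4 imprinted loci, the others being 2 further windows of Gnas and 2 of Gm34081 beside Meg3. These 4 windows belong to a splicing factor retrogene inside a Commd1 intron (Zrsr1), to the Gnas cluster of a G protein subunit, to the long non-coding RNA Meg3 and to the amino acid transporter Slc38a4.
Zrsr1 (chr11:22971755-22972054, plus strand): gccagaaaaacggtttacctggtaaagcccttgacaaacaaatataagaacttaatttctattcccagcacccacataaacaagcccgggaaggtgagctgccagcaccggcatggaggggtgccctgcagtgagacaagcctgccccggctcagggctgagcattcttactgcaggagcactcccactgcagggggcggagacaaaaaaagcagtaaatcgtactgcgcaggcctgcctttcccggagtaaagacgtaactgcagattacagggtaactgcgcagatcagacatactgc
Gnas (chr2:174284070-174284369, plus strand): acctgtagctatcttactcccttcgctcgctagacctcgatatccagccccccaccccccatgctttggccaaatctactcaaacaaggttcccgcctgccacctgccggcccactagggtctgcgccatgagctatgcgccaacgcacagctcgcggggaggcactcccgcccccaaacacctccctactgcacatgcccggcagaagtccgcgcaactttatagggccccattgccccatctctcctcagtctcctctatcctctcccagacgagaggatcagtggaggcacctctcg
Meg3 (chr12:109540746-109541045, plus strand): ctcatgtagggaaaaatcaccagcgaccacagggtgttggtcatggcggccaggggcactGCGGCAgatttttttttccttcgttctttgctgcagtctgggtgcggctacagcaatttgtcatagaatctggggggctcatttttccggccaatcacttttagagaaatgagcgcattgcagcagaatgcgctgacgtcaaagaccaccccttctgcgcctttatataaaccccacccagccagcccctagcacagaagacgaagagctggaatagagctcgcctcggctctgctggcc
Slc38a4 (chr15:97055907-97056206, minus strand): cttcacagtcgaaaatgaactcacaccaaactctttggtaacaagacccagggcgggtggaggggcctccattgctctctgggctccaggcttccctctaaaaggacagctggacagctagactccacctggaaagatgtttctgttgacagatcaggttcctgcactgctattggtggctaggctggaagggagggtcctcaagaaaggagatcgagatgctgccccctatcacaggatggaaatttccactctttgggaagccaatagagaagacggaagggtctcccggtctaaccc
The Zrsr1 window held 11 cytosines listed in all 15 libraries and its level was 42.5% ± 2.26 (SD, n = 6 wild-type) and 42.0% ± 2.12 (SD, n = 7 heterozygous), with single cytosines between 38.8 and 44.7%. The Gnas window held 10 at 35.9% ± 4.19 and 39.5% ± 3.42. The Meg3 window, the only 1 of the 4 with a match to TGCCGC, held 6 at 38.6% ± 5.39 and 38.5% ± 5.66. The Slc38a4 window held 5 CpGs but no cytosine listed in all libraries, so its member is read beside it.

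Each library listed 1817633 to 2093145 cytosines at a median coverage of 108 to 150 reads, and a member held a median of 1015 methylated plus unmethylated reads over its cytosines in a library. Reads of one cytosine are not independent molecules. Data and labels disagreed for 2 libraries. Coverage was summed over 8 cytosines of Ctcf beyond the first 2 kb of the gene. It was scaled to the coverage summed over all cytosines listed in all 15 libraries (RPM), so a read counts at each cytosine it covers. The library labelled wild-type replicate 2 (a male) had 2.94 RPM. The remaining wild-type libraries had 5.10 to 5.94 and the other heterozygous libraries 1.67 to 3.23. Wild-type replicate 2 also had 41.5% of its X chromosome cytosines at 20 to 80%, against 12.6 to 14.0% in the other libraries labelled male. The library labelled heterozygous replicate 5 (a female) had 4.87 RPM at Ctcf and 13.1% of X cytosines in that range, where the other libraries labelled female had 42.1 to 46.0%. These libraries were set apart by these 2 measures, taken outside the members. Percentages were written with 2 decimals in 9 files and with 3 in 6 (wild-type replicates 4 and 5, heterozygous replicates 1, 4, 5 and 8), a difference in file making whose reason is not given in the sources used here, and the called differences are also given within each kind. Values below are therefore means ± SD over 6 wild-type and 7 heterozygous libraries, with these 2 given apart, and tests are reported with 15 and with 13 libraries.

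Members had a median level of 53.2% and a median SD of 2.82 points in the 6 wild-type libraries. The SD limit had no gap around it: the 3 members nearest to it (nearest to Sec16b, in Map9 and nearest to Trmt61a) and the 3 non-members nearest to it (in Col8a2, in Cracd and in no gene on chromosome 16) all rounded to 4.00 points. The 2858 regions formed 2823 separate stretches, and the longest stretch, 4 regions in a row, lay near Gnas and Nespas. Of the members, 1969 (68.9%) overlapped a RefSeq gene, against 76.0% of all eligible regions, and 127 (4.44%) overlapped a promoter window, against 17.5%. RefSeq coordinates here give whole genes only, so exons, introns and untranslated regions were not assigned. A region said to lie in a gene overlaps it, in part or in full.

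Of 82 imprinted genes matched in RefSeq from a list of 83, 26 had a member within 5 kb. These members numbered 30 of 313 eligible regions (9.58%), where 3.67% of the eligible regions elsewhere were members. Genes of clusters with a maternally methylated germline region held most of them: 20 of 30 such genes had a member, as had 2 of 4 genes of the paternally methylated clusters and 4 of 43 other imprinted genes with an eligible region. Neighbouring genes could share a member, as Zrsr1 with Commd1 and Snrpn with Snurf did. These gene counts are therefore not counts of separate loci. The other 2828 members lay near no listed gene.

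**Figure D1:**
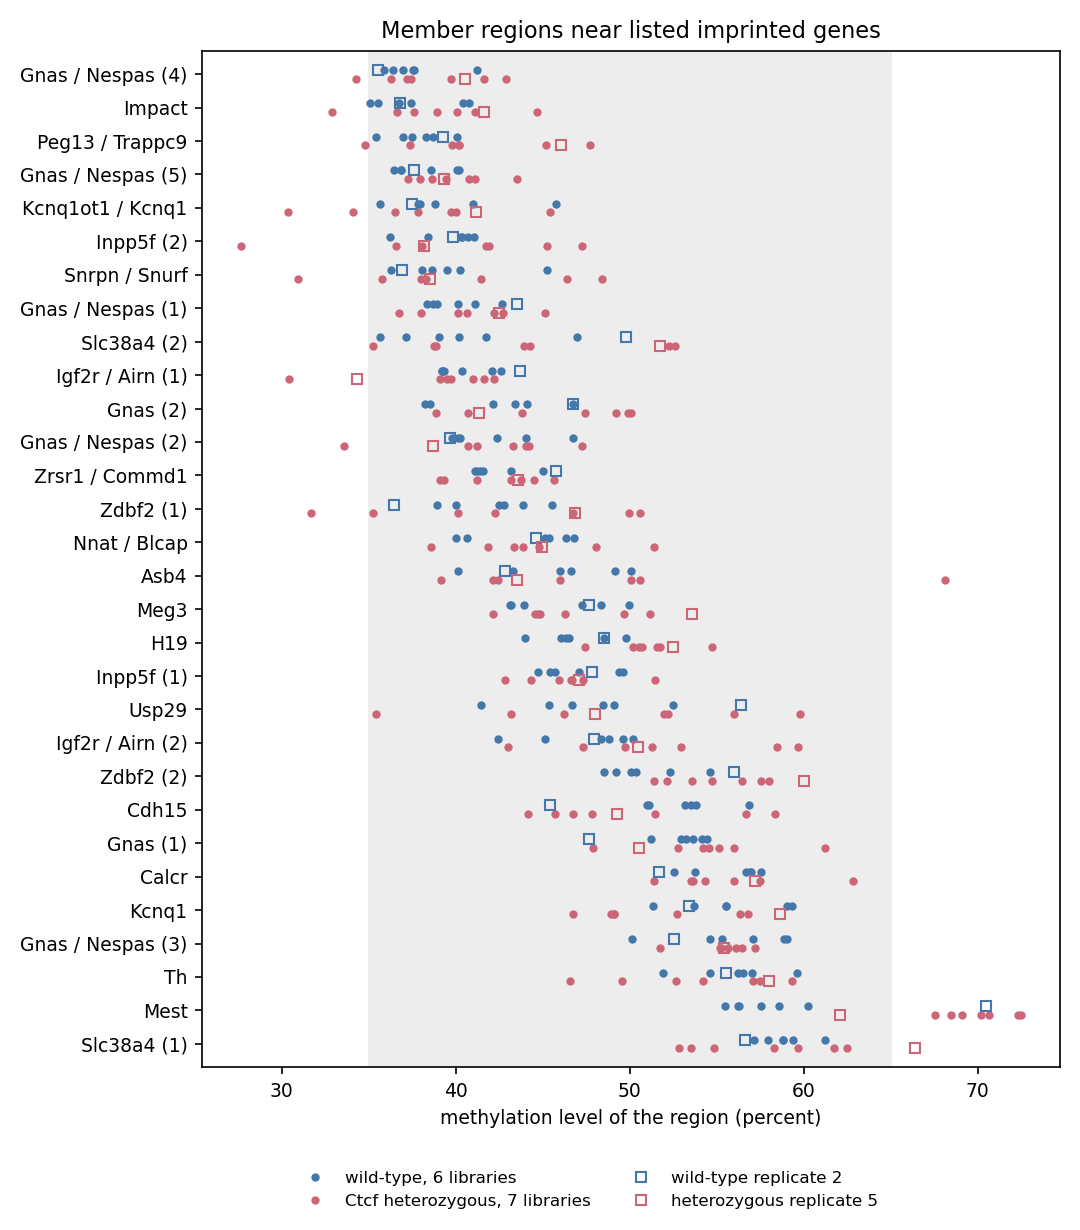
Methylation level in percent (horizontal axis) of the 30 members within 5 kb of a listed imprinted gene, ordered by wild-type mean, with each point 1 library and the 35 to 65% range shaded. Wild-type points (blue) lie inside the range because it chose them, heterozygous points (red) spread to both sides of them, and in Mest all 7 heterozygous points lie above all 6 wild-type points.

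The members described first lie in maternally methylated germline regions, and their wild-type means were below 50%. Over all 30 members near imprinted genes, 21 were below 50% in wild-type libraries, and 15 of the 17 whose single cytosines were mostly at the middle level too. Zrsr1 (chr11:22971000-22971999, 8 cytosines) had lowest, median and highest wild-type levels of 41.1, 41.5 and 45.0% and heterozygous levels of 39.1, 43.2 and 45.6%. The wild-type libraries lay within the wider heterozygous range, with means of 42.2% ± 1.56 (SD, n = 6) and 42.4% ± 2.56 (SD, n = 7). An Igf2r member also lay near Airn, the non-coding RNA that silences Igf2r on the paternal copy (chr17:12742000-12742999, 18 cytosines). This region had 39.2, 39.8 and 42.6% in wild-type and 30.4, 39.7 and 42.2% in heterozygous libraries. Its lowest heterozygous library stood below every wild-type library and the means were 40.5% ± 1.53 and 39.1% ± 3.99. Kcnq1ot1, the corresponding antisense RNA of the Kcnq1 cluster (chr7:143295000-143295999, 19 cytosines), was at 39.5% ± 3.50 and 37.7% ± 4.77. Snrpn, a splicing protein gene at the imprinting centre of its cluster (chr7:60004000-60004999, 12 cytosines), was at 39.7% ± 3.04 and 39.9% ± 6.07. Peg13, a non-coding RNA inside Trappc9 (chr15:72809000-72809999, 18 cytosines), was at 37.8% ± 1.60 and 40.8% ± 4.42. In these 4 regions the ranges of the 2 groups overlapped and the lowest heterozygous library lay below the lowest wild-type library. Nnat, which encodes neuronatin and lies in a Blcap intron (chr2:157561000-157561999, 15 cytosines), was at 44.0% ± 2.95 and 44.6% ± 4.17, and Impact, a regulator of the GCN2 pathway (24 cytosines), at 37.7% ± 2.43 and 38.8% ± 3.70.

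The Gnas cluster, which encodes the stimulatory G protein subunit and several imprinted transcripts, held 7 members, more than any other listed locus. The most deeply read was chr2:174299000-174299999 with 74 cytosines and 11630 reads in the median library, at 37.6% ± 1.89 in wild-type and 38.5% ± 3.06 in heterozygous libraries. The region chr2:174300000-174300999 beside it (42 cytosines) was at 38.2% ± 1.69 and 39.8% ± 2.15, and chr2:174284000-174284999, whose promoter window is printed above (40 cytosines), at 39.97% ± 1.66 and 40.8% ± 2.87. Higher levels stood within the same stretch at chr2:174298000-174298999 (30 cytosines, 55.8% ± 3.33 and 55.4% ± 1.74), where 24 of the 30 cytosines were at 35 to 65% in heterozygous libraries but single cytosines reached 82.6%. The first region of that stretch (chr2:174297000-174297999, 10 cytosines) was at 42.2% ± 2.74 and 42.0% ± 4.32, and a separate one further along Gnas (chr2:174334000-174334999, 6 cytosines) at 42.2% ± 3.32 and 45.7% ± 4.61. At chr2:174327000-174327999 (23 cytosines, 53.3% ± 1.14 and 54.5% ± 3.98) cytosines ran from 36.9 to 97.0%, so the middle level there was a mean over unlike cytosines.

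The 2 paternally methylated loci with a member were Meg3 and H19, both long non-coding RNAs expressed from the maternal copy. The Meg3 region (chr12:109540000-109540999, 16 cytosines) had 43.1, 45.6 and 50.0% in wild-type and 42.1, 44.8 and 51.2% in heterozygous libraries, with means of 46.0% ± 2.94 and 46.2% ± 3.16. The H19 region (chr7:142578000-142578999, 8 cytosines, overlapping the gene) had 44.0, 46.4 and 49.8% in wild-type and 47.5, 50.7 and 54.7% in heterozygous libraries. The difference of 4.12 points did not pass the test (adjusted p = 0.267, quasi-binomial regression over all regions, 13 libraries). The groups overlapped there, and wild-type replicate 2 at 48.5% and heterozygous replicate 5 at 52.5% stood within the range of the other libraries of their label. The region upstream of H19 where CTCF is known to bind (chr7:142581000-142581999, 5 cytosines), looked up for that reason after its values were seen, missed the rule at 65.7% ± 2.62 and stood at 63.8% ± 5.50 in heterozygous libraries (adjusted p = 0.772).

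Other members near imprinted genes were less uniform inside. Inpp5f, a phosphoinositide phosphatase gene with an imprinted brain transcript, had one at chr7:128688000-128688999 (39.5% ± 1.86 and 39.8% ± 6.50), where cytosines ran from 1.37 to 96.7%, and one 182 bases outside the gene (chr7:128610000-128610999, 47.0% ± 2.08 and 46.4% ± 2.69) in which none of 6 cytosines was at 35 to 65%. Slc38a4 had a uniform one (chr15:97055000-97055999, 7 of 7 cytosines at 35 to 65%, 40.1% ± 3.98 and 43.7% ± 6.73) and a higher one (chr15:97050000-97050999, 58.9% ± 1.38 and 57.6% ± 3.93). Zdbf2, a zinc finger gene expressed from the paternal copy, had 2 (chr1:63261000-63261999, 42.3% ± 2.45 and 42.4% ± 7.24; chr1:63309000-63309999, 50.8% ± 2.24 and 54.8% ± 2.61). Usp29, which shares its cluster with Peg3, had 47.3% ± 3.74 and 49.3% ± 8.27 at chr7:6781000-6781999. The member in Kcnq1, a potassium channel gene (chr7:143192000-143192999), was at 55.7% ± 3.08 and 51.4% ± 3.95, and the other Igf2r member (chr17:12751000-12751999) at 47.4% ± 3.02 and 51.8% ± 5.90. Away from germline regions, members lay in the calcitonin receptor gene Calcr (55.7% ± 2.06 and 55.6% ± 3.73), in the tyrosine hydroxylase gene Th (56.0% ± 2.57 and 53.8% ± 4.59), near Asb4 (45.9% ± 3.70 and 48.4% ± 9.68) and near the cadherin gene Cdh15 (53.2% ± 2.16 and 50.1% ± 5.54). Asb4 spread most of the 30 among heterozygous libraries, with 1 library at 68.1% over a median of 46.0%.

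Several genes of well known germline clusters had no member. For each, the eligible region nearest to the middle of the level range was looked up, which need not be the germline region itself. These regions missed the rule by their level in 1 or more wild-type libraries or by their spread. Grb10, a receptor tyrosine kinase adaptor, had the most cytosines of these (chr11:12026000-12026999, 99 cytosines) and a wild-type level of 36.6% ± 2.23, with 1 library at 34.3%. Plagl1, a zinc finger gene (chr10:13091000-13091999, 38.0% ± 3.23, lowest 34.9%), and the Zdbf2 and Gpr1 region (chr1:63226000-63226999, 34.0% ± 3.32, lowest 29.6%) also fell under 35% in a library. The spread alone kept out Peg10 with Sgce (chr6:4747000-4747999, 42.2% ± 5.19), Peg3 (chr7:6730000-6730999, 41.5% ± 4.44), Mcts2 with H13 (chr2:152687000-152687999, 50.8% ± 7.30), Nap1l5 with Herc3 (chr6:58906000-58906999, 51.4% ± 4.39) and Dlk1 (chr12:109459000-109459999, 42.7% ± 4.94). Rasgrf1 missed both limits (chr9:89913000-89913999, 29.4% ± 5.39). Inside Peg10, Peg3, Mcts2 and Nap1l5 the cytosines were alike, with an SD between cytosines of 2.78, 2.92, 2.81 and 5.37 points in the mean of the heterozygous libraries. The same value was 2.02 in Zrsr1, 2.31 in Igf2r with Airn and 2.64 in Kcnq1ot1, so the members are not all the uniform imprinted regions in these data.

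Single cytosines, read in the 7 heterozygous libraries that had no part in choosing the members, were at the middle level more often in members near imprinted genes than in the other members. A region was called even when at least 75% of its cytosines had a mean of 35 to 65%. Of the members near imprinted genes, 17 of 30 (56.7%) were even, against 549 of 2828 elsewhere (19.4%), and the median SD between cytosines was 10.5 points near imprinted genes and 20.8 elsewhere. In all, 566 members (19.8%) were even. The 2986 regions of middle level whose wild-type SD was 4 points or more were even more often (39.1%). By single cytosines, 74.8% of the 468 in members near imprinted genes were at 35 to 65%, and 45.7% of the 24868 in the other members, where 10.8% were under 20% and 15.7% at 80% or over. The 7 Gnas members, with up to 74 cytosines each, weigh heavily in the share near imprinted genes. These shares describe the regions, and no test of the difference between the lists was made.

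**Figure D2:**
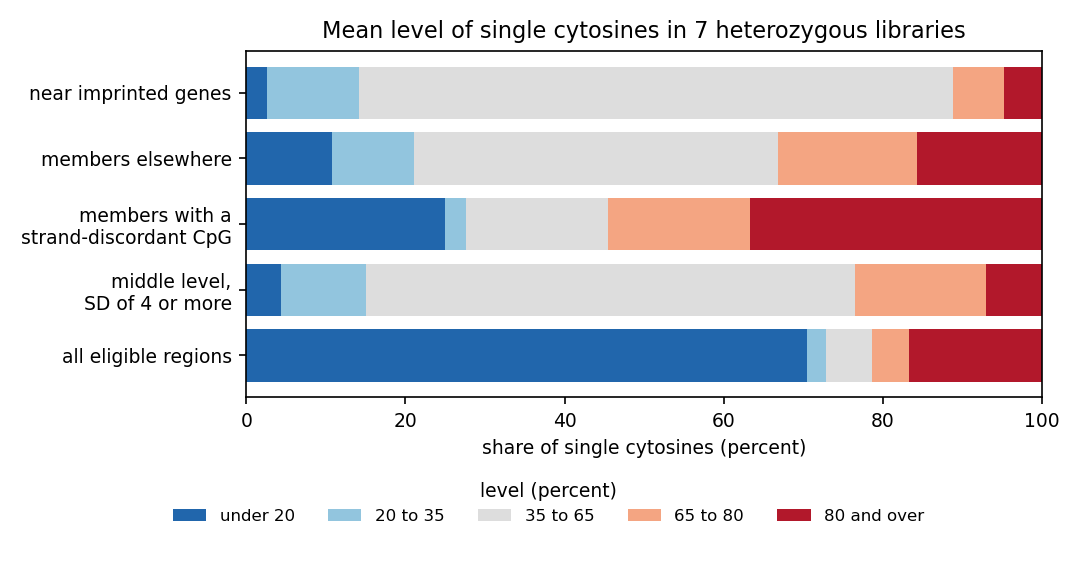
Share of single cytosines (horizontal axis, percent) in 5 classes of mean level over the 7 heterozygous libraries, for members near imprinted genes, members elsewhere, members with a strand-discordant CpG (strands more than 50 points apart), regions of middle level with a larger wild-type SD, and all eligible regions. Members near imprinted genes are mostly grey (35 to 65%), while members with a strand-discordant CpG are mostly blue (under 20%) and dark red (80% and over).

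A part of the members reached the middle level by averaging 2 strands of a CpG that were read very differently. Where both cytosines of a CpG were listed, they were called discordant when their means over the heterozygous libraries differed by more than 50 points. This held for 1371 of 6322 such CpGs in members (21.7%) and for 1.22% of 318836 in all eligible regions. A difference of that size needs a strand above 50%, and 70.5% of cytosines in all eligible regions were under 20%, so these shares are not alike. In regions of middle level with a larger SD it held for 5.38%. At least 1 discordant CpG stood in 805 of 2858 members (28.2%) and in 3.36% of all eligible regions. It stood in 174 of 2986 regions of middle level with a larger SD (5.83%) and in 4 of 30 members near imprinted genes (Calcr, Inpp5f, Kcnq1 and Gnas). A high and a low strand also average to a middle level, which the rule asked for. In discordant CpGs the higher strand had a median level of 86.9% and the lower strand 1.53%.

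The discordant CpGs had a fixed arrangement. Of 558 members with 2 or more of them, 554 had the low cytosine of the first on the minus strand and that of the last on the plus strand, a median of 48 bases apart (quartiles 48 and 49). Members with at least 1 discordant CpG often held exactly 6 cytosines (57.5%, against 17.5% of members without one). The member in Cpa6, a carboxypeptidase gene (chr1:10544000-10544999), shows the form: its first CpG was at 84.4% on the plus and 0.847% on the minus strand, its middle CpG at 88.9 and 90.6%, and its last CpG at 2.31 and 90.8%. The region as a whole was at 60.6% ± 3.48 in wild-type and 59.5% ± 4.51 in heterozygous libraries. Rims1, a synaptic scaffold gene (chr1:22288000-22288999), had 87.8 and 1.58% at the first, 82.2 and 81.1% at the middle and 1.04 and 92.5% at the last CpG. In RRBS the enzyme MspI cuts at CCGG and the recessed ends are filled in during library preparation. Within promoter windows, where the sequence could be read, 16 of 125 CpGs in CCGG with a strand at 80% or more were discordant and 1 of 153 elsewhere. The part of these sites in members outside promoter windows was not tested.

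**Figure D3:**
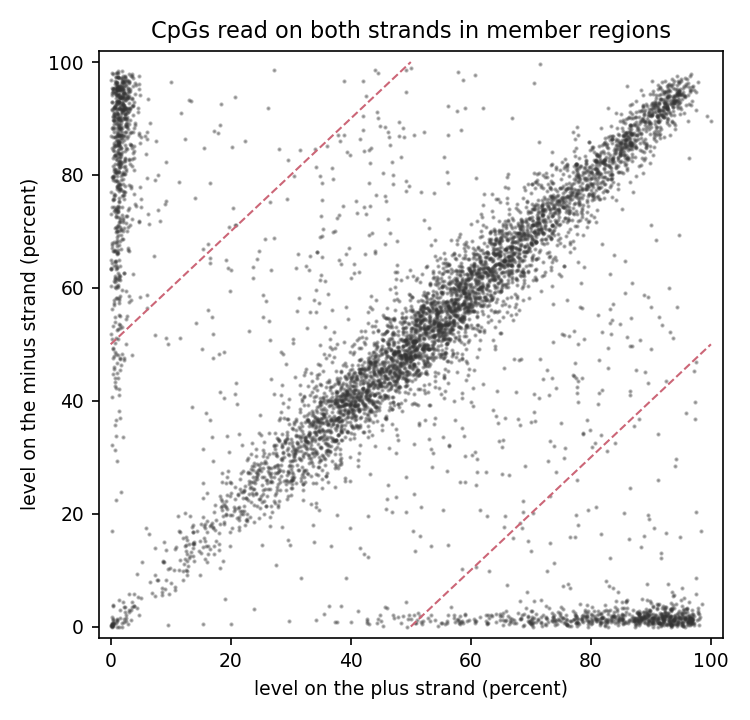
Mean level over 7 heterozygous libraries on the plus strand (horizontal axis, percent) and on the minus strand (vertical axis, percent) for the 6322 CpGs of members listed on both strands, 1 point per CpG. Most points follow the diagonal, and the 1371 discordant CpGs beyond the dashed lines (differences of 50 points) gather where one strand is near 0.

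When discordant CpGs were left out and the rule was applied again, an alternative added after seeing the data, 2147 regions met it, 2141 of them members before. Of the 805 discordant members, 88 stayed, 622 had fewer than 5 cytosines left, and 95 no longer met the level or SD limits. The median wild-type level of these 95 was then 63.8%, and 38 of them averaged above 65%. Members near imprinted genes went from 30 to 27.

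Stability between animals was then read in the libraries the rule did not use. Each of the 7 heterozygous libraries had 89.0 to 94.6% of members at 35 to 65%, wild-type replicate 2 had 93.7% and heterozygous replicate 5 95.2%. The regions of middle level with a larger wild-type SD were in the range about as often. Their shares were 94.8% in wild-type replicate 2 and 96.9% in heterozygous replicate 5. All 7 heterozygous libraries were in the range in 1990 members (69.6%) and in 64.7% of those regions. The whole rule was met in heterozygous libraries too by 1034 members (36.2%) and by 12.6% of those regions. These members were 61.7% of the 1677 regions that met it there. The median heterozygous SD was 4.29 points in members and 5.68 in the regions of middle level with a larger wild-type SD. The wild-type SD of members cannot be set against it, since a small wild-type SD chose them.

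Members with discordant CpGs varied less between heterozygous libraries than those without. Their median heterozygous SD was 2.53 points and 80.1% stayed under 4 points, against 4.88 points and 29.8% in members without one. Split members, with at least 25% of cytosines under 20% and at least 25% over 80%, numbered 486, and 425 of these were discordant. Split members varied less still, with a median heterozygous SD of 1.96 points and 90.9% under 4 points. Even members had a median heterozygous SD of 5.79 points, and 18.02% stayed under 4 points. The discordant, split and even classes were set from cytosine levels in these same heterozygous libraries. Cytosines that are almost unmethylated or almost fully methylated have little room to vary. The class definitions thus favour this order, and no difference in stability is read from it. Members near imprinted genes had a median of 3.98 points, and 16 of 30 stayed under 4 points, at a larger median depth (1438 reads per library, against 1087 in even members).

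**Figure D4:**
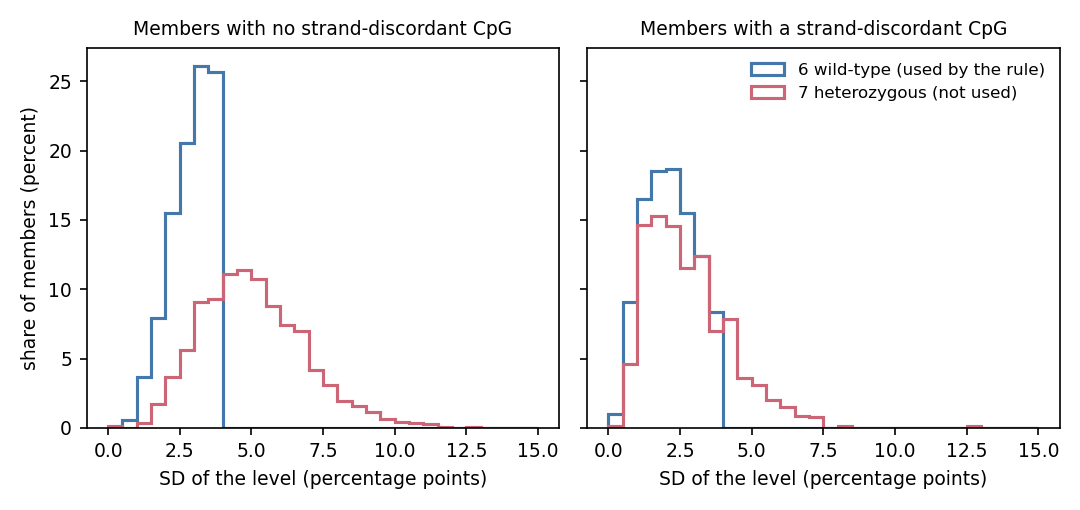
Share of members (vertical axis, percent) by SD of the level in percentage points (horizontal axis) between 6 wild-type (blue) and 7 heterozygous libraries (red), for members without (left) and with a strand-discordant CpG (right). Wild-type values end at 4 points because the rule used them, and heterozygous values extend beyond 4 points more often in the left panel.

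Away from listed imprinted genes, the 10 members with at least 10 cytosines and the smallest SD between cytosines in heterozygous libraries (2.49 to 5.39 points) were named for that uniformity. They lay in Mgst2, a glutathione transferase family gene (chr3:51636000-51636999, 39.8% ± 2.71 and 32.5% ± 5.44), in Maml3, a Notch coactivator gene (chr3:52044000-52044999, 44.4% ± 3.81 and 51.9% ± 7.24), and in Rinl (chr7:28796000-28796999, 39.3% ± 3.35 and 34.8% ± 5.99). Others lay in Zfp809, a KRAB zinc finger gene known for silencing endogenous retroviruses (chr9:22227000-22227999, 42.6% ± 3.31 and 42.7% ± 5.14), in Ctdspl (chr9:118975000-118975999, 45.9% ± 2.07 and 47.4% ± 6.02), in Cradd, a death domain adaptor gene (chr10:95318000-95318999, 41.1% ± 2.64 and 43.9% ± 6.74), and in Tiam1, a Rac exchange factor gene (chr16:89934000-89934999, 42.0% ± 2.53 and 43.2% ± 5.73). The remaining ones lay in 2610035D17Rik (chr11:113044000-113044999, 60.9% ± 2.29 and 59.7% ± 6.27), 7183 bases from Dynll2 (chr11:88011000-88011999, 43.1% ± 1.92 and 41.4% ± 6.33), and in no gene, 342525 bases from Klf4 (chr4:55875000-55875999, 58.5% ± 2.38 and 61.9% ± 4.65). Every one of these 10 had a heterozygous SD above 4 points (4.65 to 7.24), so none met the rule in heterozygous libraries. Wild-type replicate 2 was in the range in 8 of the 10, and stood at 27.3% in Mgst2 and 25.01% in Rinl. None of the 10 passed the genotype test (adjusted p of 0.204 to 0.989, quasi-binomial regression, 13 libraries). The allele of single reads was not analysed here, so whether any of them is methylated on one parental copy was not tested.

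The genotypes were compared at every eligible region with a quasi-binomial logistic regression on the reads of each library, with sex as a covariate and Benjamini-Hochberg adjustment over all regions. With 15 libraries no member passed an adjusted p of 0.05, as no eligible region did (0.0% of the 77326 that could be fitted), with 336 members (11.8%) at an unadjusted p under 0.05, against 9.1% of all regions, and none passed in limma either. With 13 libraries 29 members passed (1.01%), 23 higher and 6 lower in heterozygous libraries, where 0.313% of all regions passed (0.247% higher and 0.066% lower). Unadjusted, 475 members (16.6%) and 11.0% of all regions were under 0.05. In members the heterozygous minus wild-type difference had a median of 0.689 points and 61.0% were higher in heterozygous libraries, against 0.128 points and 63.0% of all. The rule had chosen members for a small wild-type spread, which enters this fit, so nothing is read from their larger share. Leaving out wild-type replicate 2 alone gave 5 called members, and leaving out heterozygous replicate 5 alone gave 0. In the 13-library fit the count was 10 with limma and 14 without moderated dispersions, and fell to 18 without wild-type replicate 4, to 19 without wild-type replicate 7, heterozygous replicate 7 or heterozygous replicate 8, and rose to 45 without heterozygous replicate 3.

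Near imprinted genes 1 of 30 members passed, where 0.313% of all regions did. It lay 507 bases from Mest, a hydrolase gene expressed from the paternal copy (chr6:30732000-30732999, 6 cytosines, median 1028 reads per library). Its levels were 55.5, 56.9 and 60.2% (lowest, median, highest) in wild-type and 67.6, 70.2 and 72.5% in heterozygous libraries. The groups did not overlap, with means of 57.4% ± 1.77 (SD, n = 6) and 70.1% ± 1.87 (SD, n = 7), a rise of 12.7 points (adjusted p = 0.000676, quasi-binomial regression, 13 libraries). Here and at the called regions below, the rule had fixed a small wild-type SD, which enters the fit and favours groups that do not overlap. Wild-type replicate 2 stood at 70.5% and heterozygous replicate 5 at 62.1%, and with both the means were 59.2% ± 5.20 (n = 7) and 69.1% ± 3.31 (n = 8) and the adjusted p was 0.236. The call held in each of the 13 fits without 1 library, and the rise was 11.4 points in files written with 2 decimals and 14.4 points in those with 3. Of its cytosines 3 were at 35 to 65% in heterozygous libraries and the highest was at 86.5%, so this was not an even member. The 2 other regions looked at near Mest (chr6:30735000-30735999 and chr6:30739000-30739999) stood at 45.9% ± 7.23 in wild-type and 43.1% ± 7.28 in heterozygous libraries and at 38.3% ± 3.34 in wild-type and 35.3% ± 2.15 in heterozygous libraries and did not pass. At the other 29 members near imprinted genes the heterozygous minus wild-type difference ran from -4.35 to 4.36 points (adjusted p of 0.267 or more).

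The largest rises stood away from imprinted genes. The region 4179 bases from Gapvd1, a gene of endocytosis (chr2:34671000-34671999, 16 cytosines), had 35.1, 39.0 and 42.4% in wild-type and 53.2, 60.5 and 68.8% in heterozygous libraries, a rise from 39.2% ± 2.63 to 61.3% ± 5.02 (adjusted p = 0.000377, quasi-binomial regression, 13 libraries). Its level was 59.7% in wild-type replicate 2 and 29.0% in heterozygous replicate 5, the first within the range of the 7 heterozygous and the second below all 6 wild-type libraries. The region in Prkd2, which encodes protein kinase D2 (chr7:16858000-16858999, 25 cytosines), had 37.1, 40.8 and 42.9% and 55.1, 61.4 and 64.97%, a rise from 40.3% ± 2.22 to 61.4% ± 3.56 (adjusted p = 0.000182), with 70.3% in wild-type replicate 2 and 42.7% in heterozygous replicate 5. The region in Xpnpep1, an aminopeptidase gene (chr19:52993000-52993999, 6 cytosines), rose from 50.7% ± 3.69 to 71.2% ± 5.08 (adjusted p = 0.00223), with 72.2% in wild-type replicate 2 and 52.2% in heterozygous replicate 5. In all 3 the 6 wild-type and 7 heterozygous libraries did not overlap. Gm36435 (chr9:42275000-42275999) rose by 15.6 points and 4930456L15Rik (chr4:103299000-103299999, with 2 discordant CpGs) by 15.48 points. Within files of 2 decimals and of 3 decimals the differences were 24.1 and 19.4 points near Gapvd1, 19.7 and 23.5 in Prkd2, 19.4 and 22.9 in Xpnpep1, 16.0 and 15.8 in Gm36435 and 10.8 and 22.9 in 4930456L15Rik, so the last depended most on the kind of file.

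Fewer members fell. The region in Efna2, an ephrin ligand gene (chr10:80186000-80186999, 21 cytosines), had 49.1, 52.8 and 56.8% in wild-type and 31.8, 39.0 and 39.8% in heterozygous libraries, a fall from 53.2% ± 3.19 to 37.4% ± 3.04 (adjusted p = 0.000921, quasi-binomial regression, 13 libraries), with 34.1% in wild-type replicate 2 and 53.0% in heterozygous replicate 5. Cntn2, a neural adhesion molecule gene (chr1:132521000-132521999, 50.6% ± 1.80 to 39.3% ± 4.90), Bcan, which encodes the proteoglycan brevican (chr3:87989000-87989999, 55.5% ± 1.68 to 44.9% ± 4.46), the region 1627 bases from the non-coding RNA Dleu2 (chr14:61684000-61684999, 50.1% ± 2.23 to 40.6% ± 4.76) and Zbtb7c, a zinc finger gene (53.4% ± 3.71 to 44.9% ± 3.799), also passed. These 4 calls were less firm: they did not pass in limma or without moderated dispersions, and leaving out 1 library lost Cntn2 in 12, Bcan in 8 and Zbtb7c in 8 of 13 fits. Within files of 2 and of 3 decimals the differences were -13.5 and -20.1 points in Efna2, -12.7 and -9.10 in Cntn2, -9.24 and -12.8 in Bcan, -10.7 and -7.98 near Dleu2 and -11.0 and -4.27 in Zbtb7c.

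**Figure D5:**
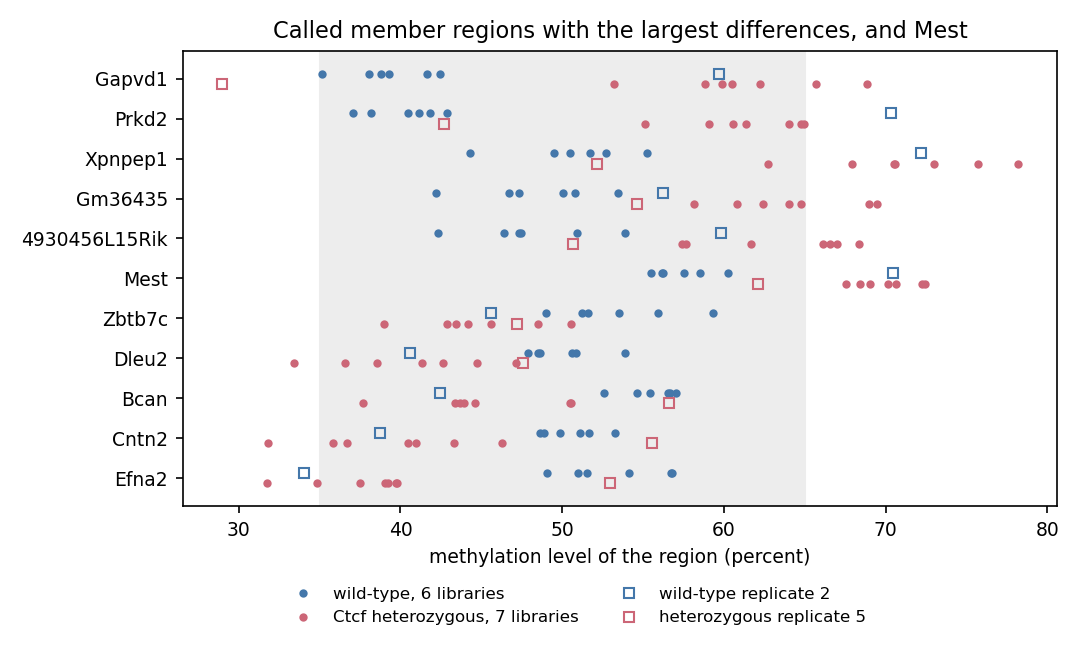
Methylation level in percent (horizontal axis) of the 10 members with the largest called differences and of Mest, with each point 1 library, the 6 wild-type libraries in blue, the 7 heterozygous libraries in red and the 2 libraries at odds with their labels as open squares. In Gapvd1, Prkd2 and Efna2 the open blue square lies on the heterozygous side of the gap and the open red square on the wild-type side.

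The 2 libraries left out of that fit took no part in these calls, and their levels went against their labels at most of the called members. Wild-type replicate 2 was nearer to the heterozygous mean in 28 of 29 (the exception was Cyp2w1), and heterozygous replicate 5 nearer to the wild-type mean in 25 of 29, both in 24. The 6 and 7 libraries did not overlap in 27 of the 29, which the call itself and the small wild-type SD of the rule nearly fix. The difference had the same sign within files of 2 and of 3 decimals in all 29, with sizes of 6.11 to 22.1 points overall. Of the 29, 1 was even (nearest to Ppp4r2, a phosphatase subunit gene) and 3 held a discordant CpG. The other called members, all of those not named above, lay in Akp-ps1, Lamb3, Ttll9, Cdh4, Slc39a8, Dnah10, Zan, Cyp2w1, Brsk1, Myh14, Gm4799, Aatk, Ccdc85c, Gm10814 and Pdzd7, 2282 bases from Lamc3 and 119882 bases from Stxbp6. The one by Ppp4r2 lay 13066 bases from its gene. Several of these calls were also less firm: leaving out 1 library lost Ppp4r2 in 11, Cyp2w1 in 10, Gm4799 in 9, Stxbp6 in 9, Cdh4 in 8, Zan in 7, Lamc3 in 6, Slc39a8 in 6 and Gm10814 in 3 of 13 fits. The other 9 of this list were kept in all 13 fits. Lamb3 and Lamc3 encode laminin chains of the basement membrane.

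Whether the genotype difference depended on sex was tested with an interaction term in the 13 libraries, and 1 member passed, where 0.253% of all regions did. It lay in Fcrl5, an Fc receptor-like gene of B cells (chr3:87500000-87500999, 8 cytosines, adjusted p = 0.0331, quasi-binomial regression). Females were at 42.2% ± 2.75 (SD, n = 4 wild-type) and 27.7% ± 1.12 (n = 3 heterozygous). Males were at 35.8% ± 1.00 (n = 2) and 38.9% ± 2.90 (n = 4).

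Sequence could be read only in promoter windows. The hexamer TGCCGC, searched on both strands, stood in 10 of 149 windows that overlap members (6.71%), against 20.4% of 14664 windows on eligible regions and 11.6% of all 31365. These sets differ in CpG content, with medians of 7.00, 21.0 and 7.00 CpGs. Near imprinted genes it stood in 1 of 8 windows. The letters CCAGNNGGC, the core of the motif CTCF binds, stood in 14 of the 149 (9.40%), against 12.2% on eligible regions and 8.85% of all.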

How the data were processed

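Whole-lung DNA of 15 mice was read by RRBS and enhanced RRBS. Per the submitters' processing notes, reads were aligned with Bismark to mm10 and called with methylKit, with no versions. Per the file headers, the authors deposited, for each CpG cytosine and strand, coverage as a count of reads and the percent of reads showing C (methylated) or T (unmethylated). Cytosines under 10 reads are absent from the deposited files. Percentages were turned back into whole reads, summed over 1 kb windows starting at multiples of 1000 bases, and a region needed 5 autosomal cytosines listed in all 15 files.

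Members and lists (imprinted genes, the even and discordant classes) were chosen with earlier results of these data known. A member was near an imprinted gene when within 5 kb of it; 82 of 83 listed symbols matched RefSeq (GRCm38.p6), which gave gene positions and promoter sequences (250 bases before to 50 after the start) but no exons. Genotype was tested per region with quasi-binomial logistic regression on methylated and unmethylated reads, sex as covariate, dispersion moderated across regions in the way of limma and held at 1 or more, an F test and Benjamini-Hochberg adjustment over all regions (Python 3.11.15, numpy 2.4.6, scipy 1.17.1). limma 3.58.1 (R 4.3.3) on log2 ratios with 2 reads added to each count was the other tool. On simulated data 35 of 100 planted changes of 10 points and 89 of 100 of 20 points were recovered with 15 libraries, and 21 and 76 with 13. Errors are SD over libraries, each mouse being a replicate. Coverage gives counting precision only, as reads carried no molecular identifiers.

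Replicate numbers follow sample order within a genotype and pair no animals. For 4 libraries the animal number in the title differed from that in the deposited table's name, among them wild-type replicate 2 and heterozygous replicate 5, and libraries were kept under their recorded labels. Named regions were all members near imprinted genes, germline genes without a member (the eligible region nearest to 50%), the 10 members elsewhere with 10 or more cytosines and the smallest SD between cytosines, the 5 largest called rises and falls with 13 libraries, and 3 regions on each side of the SD limit. Alternatives were other coverage, cytosine, SD and level limits, window grids, covariates, tools and libraries. Leaving out discordant CpGs, and discordance limits of 30 or 70 points, were added after seeing the data.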

Additional observations from a re-analysis of the deposited data

Results flagged for a closer look

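In 14 of 92 groups tested, each the 7 wild-type or 8 heterozygous libraries at a named region, 1 library stood apart from the rest by Dixon's test. For an unselected group chance gives about 1 in 20, but that rate does not apply here: the wild-type groups hold 6 libraries chosen for a small SD, and many of the regions were called without the 2 libraries at odds with their labels. Of the 14, 11 were those 2 libraries, at regions called without them. Wild-type replicate 2 was the lowest in Cntn2 at 38.8% (the others 48.6 to 53.3%), in Bcan at 42.4% (the others 52.6 to 57.1%) and in Efna2 at 34.1% (the others 49.1 to 56.8%). It was the highest near Gapvd1 at 59.7% (the others 35.1 to 42.4%), near Mest at 70.5% (the others 55.5 to 60.2%), in Prkd2 at 70.3% (the others 37.1 to 42.9%) and in Xpnpep1 at 72.2% (the others 44.3 to 55.2%). Heterozygous replicate 5 was the lowest near Gapvd1 at 29.0% (the others 53.2 to 68.8%), near Mest at 62.1% (the others 67.6 to 72.5%) and in Prkd2 at 42.7% (the others 55.1 to 64.97%), and the highest in Efna2 at 53.0% (the others 31.8 to 39.8%).

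The other 3 were single libraries in regions that were not called. In the Gnas and Nespas stretch, heterozygous replicate 4 was the lowest at 51.8% (the others 55.2 to 57.2%) in the second region and wild-type replicate 3 the highest at 41.2% (the others 35.5 to 37.6%) in the one after it. In Cradd, wild-type replicate 7 was the lowest at 35.9% (the others 41.1 to 44.1%). The genotype difference in Fcrl5 differed between the sexes (interaction term, adjusted p = 0.0331, quasi-binomial regression), at -14.6 points in females and 3.12 points in males. It rests on 2 wild-type males, and its cause was not tested.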

How the results depend on the processing

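The number of members followed the limits: 4947 with 3 or more cytosines, 761 with 10 or more, 1628 with an SD under 3 points, 1473 at 40 to 60%, 4507 at 30 to 70% and 1677 with the rule applied to heterozygous libraries. It was 2885 to 3700 without 1 wild-type library. With cytosines counted as middle at 30 to 70%, 982 members were even. Members near imprinted genes stayed within 1.5 times of 30 in the 6 alternatives run. With 15 libraries, leaving out 1 library gave 0 to 36 calls in all and 0 to 5 in members, the highest in both without wild-type replicate 2, and 1 in all without heterozygous replicate 3 or 5. With 13 libraries there were 108 calls in all and 10 in members with limma, 75 and 14 without moderated dispersions, and 430 and 35 with age added. Leaving out 1 of the 13 gave 126 to 381 in all and 18 to 45 in members. No named difference changed sign. Mest, Gapvd1, Prkd2, Xpnpep1, Efna2, Gm36435 and 4930456L15Rik passed under each tool and covariate set and without each library, while Cntn2, Bcan, Dleu2 and Zbtb7c did not pass in 14, 10, 3 and 11 alternative fits. Causes were not tested. With 6 and 7 libraries, changes of 10 points were mostly missed in simulated data (21 of 100 recovered). That simulation used the spread of the 15-library fit and regions without the SD limit, so it does not give the share missed in members. No paired analysis was possible because replicate numbers follow sample order and pair no animals.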

Other observations

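Of 97 members with an eligible region on both sides, 13 (13.4%) had one neighbour under 20% and the other above 80% in the wild-type mean. By chromosome, members were 2.36% of the eligible regions on chromosome 19 and 4.27% on chromosome 11, the lowest and the highest shares.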
